A study of Mus musculus with 32 samples.

Results

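The interferon response and antigen presentation genes are a set of 35 members, chosen by name with earlier results of these data known. Shares of members set beside all genes below therefore describe this list and do not test it. The count tables listed 55291 genes for astrocytes and for O4 cells, 53700 for microglia and 17572 for cultured astrocytes. All 35 members were found in each of the 4 count tables. By role they comprise 6 sensors and transcription factors (Stat2, Irf9, Irf7, Irf1, Nlrc5, Ifih1), 3 genes of the ISG15 system (Isg15, Usp18, Herc6) and 18 antiviral effectors. The other 8 present antigen, 5 through MHC class I (Tap1, Tap2, Tapbp, H2-K1, Psmb9) and 3 through MHC class II (H2-Aa, H2-Ab1, Cd74). The RNA came from 32 libraries of mouse glia, and every mouse and culture carried TDP-43_Q331K, a disease-linked substitution in TDP-43, an RNA-binding protein, that serves to model amyotrophic lateral sclerosis. Non-transgenic mice were not analysed here, so the age comparisons describe age within the transgenic line and not the effect of the transgene. Omomyc-treated and vehicle-treated primary astrocytes had 3 libraries each. Omomyc is a small dominant-negative protein derived from MYC, given at 40 µM for 48 hours to cells replated after 14 days of culture. Astrocytes positive for ACSA, a surface antigen of that cell type, came from cortex and spinal cord at 3, 6 and 10 months, with 4, 5 and 2 libraries. Oligodendrocytes positive for O4, an antigen of the oligodendrocyte lineage (O4 cells below), came from the same tissues at 6 months and 3 months, with 4 libraries each. Microglia positive for Cd11b, a myeloid integrin, came from cortex alone, as 4 libraries of mice aged 10 months and 3 libraries of mice aged 3 months. Nothing in the labels says how many animals stood behind a library, so the p-values measure the spread between these libraries.

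Interferons are secreted proteins that cells release when they sense foreign or misplaced nucleic acids. Type I interferons bind a receptor that activates STAT2. With IRF9 it takes part in a complex that binds the interferon-stimulated response element, ISRE, in promoters of interferon-stimulated genes. Type II interferon acts through another element, GAS, and through IRF1 and NLRC5 on the genes of MHC class I. In the brain these genes are low in resting glia and are best known from viral infection, ageing and neurodegeneration, where microglia, astrocytes and oligodendrocytes can all express them. MHC class I presents peptides cut by the proteasome (PSMB9 is an interferon-inducible subunit) and carried into the endoplasmic reticulum by TAP1 and TAP2. MHC class II, with its chaperone CD74, is mostly a property of myeloid and antigen-presenting cells.

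The promoter sequences show which elements the members hold near their starts. RefSeq promoters on GRCm38.p6, each 300 bases (250 before and 50 after the gene's start), were matched for 27 of the 35 members (not Mx1, H2-Ab1, Rtp4, Parp14, Usp18, Cd74, Nlrc5 and Tap2). The ISRE core, searched on both strands as GAAA, any 2 bases and GAAA again, stood in 13 of these 27 promoters (48.1%), and in 1079 of 27025 genes with a promoter in the table (3.99%). The GAS element, searched on both strands as TTCNNNGAA, stood in 6 of the 27 (22.2%), and in 9.55% of all. The E-box CACGTG, a sequence bound by MYC and other factors, stood in 0 of the 27, and in 8.09% of all. The following stretches are printed because they hold the ISRE cores of members described below, with Isg15 and Ifit1 as classic interferon-stimulated genes. Each runs 5′ to 3′ along its gene's own strand, and capitals mark the matches to the ISRE core or its reverse complement, merged where they overlap.
Isg15 at chr4:156200835-156200924, strand −: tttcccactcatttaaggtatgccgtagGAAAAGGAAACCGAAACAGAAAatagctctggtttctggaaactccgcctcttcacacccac
Ifit1 at chr19:34640764-34640853, strand +: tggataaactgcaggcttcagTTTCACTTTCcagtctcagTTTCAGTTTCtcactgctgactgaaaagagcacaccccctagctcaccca
Ifit3 at chr19:34583367-34583456, strand +: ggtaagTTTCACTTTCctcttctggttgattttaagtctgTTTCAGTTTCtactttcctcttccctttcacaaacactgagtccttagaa
Gbp3 at chr3:142559965-142560043, strand +: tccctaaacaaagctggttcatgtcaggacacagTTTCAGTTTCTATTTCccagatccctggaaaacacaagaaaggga
Trim30a at chr7:104465194-104465269, strand −: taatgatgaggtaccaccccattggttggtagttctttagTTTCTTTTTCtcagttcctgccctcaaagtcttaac
Slfn5 at chr11:82951907-82951996, strand +: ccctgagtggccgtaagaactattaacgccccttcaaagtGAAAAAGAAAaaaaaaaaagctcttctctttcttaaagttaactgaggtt
Rsad2 at chr12:26456523-26456612, strand −: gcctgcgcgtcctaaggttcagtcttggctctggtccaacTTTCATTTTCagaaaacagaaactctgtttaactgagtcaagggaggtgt
Bst2 at chr8:71537547-71537636, strand −: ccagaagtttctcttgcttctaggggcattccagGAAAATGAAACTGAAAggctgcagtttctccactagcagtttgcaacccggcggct
Isg15 held 3 overlapping cores, and Ifit1, Ifit3, Gbp3 and Bst2 held 2 each. In Slfn5 the core ran into a stretch of adenines. A letter match is a description of the window and not evidence that a factor binds there.

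Several members are neighbours. On GRCm38 with GENCODE vM21, the class I genes lie within the MHC on chromosome 17: Tapbp at 33915899-33929292, H2-K1 at 33996017-34000347, Psmb9 at 34181987-34187764, Tap1 at 34187553-34197225 and Tap2 at 34203527-34216321. H2-Ab1 (34257689-34269419) and H2-Aa (34282744-34287823) follow. Psmb9 and Tap1 are read in opposite directions from starts 226 bases apart in RefSeq, and the stretch between them held none of the 3 motifs. It is shown because both genes start from it.
Psmb9 to Tap1 at chr17:34187331-34187555, strand +: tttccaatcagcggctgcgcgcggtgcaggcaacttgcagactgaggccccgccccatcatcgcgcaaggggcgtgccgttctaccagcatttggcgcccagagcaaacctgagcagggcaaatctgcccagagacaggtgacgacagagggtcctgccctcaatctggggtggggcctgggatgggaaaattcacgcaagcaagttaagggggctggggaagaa
Ifit2, Ifit3 and Ifit1 lie in a row on chromosome 19, Gbp7 and Gbp3 on chromosome 3, Slfn5 and Slfn2 on chromosome 11, and Rsad2 and Cmpk2 back to back on chromosome 12.

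The labelled cell types were checked against 8 markers each for astrocytes and oligodendrocytes and 10 for microglia, with levels as summed CPM, counts scaled to a common library total. The oligodendrocyte sum was 79208–167292 in O4 libraries, where the astrocyte sum was 501–746. In ACSA libraries the astrocyte sum was 22857–35099, but the oligodendrocyte sum was also high, at 15682–36179, so these libraries hold oligodendrocyte RNA. Microglial libraries had a microglial sum of 24919–43993. Cultured astrocytes had 7755–9410 for astrocytes, 3204–5255 for mural cells and fibroblasts and 1573–3638 for microglia. Library totals were 6151583–20763190 counts in astrocytes, 9752907–18598533 in O4 cells, 4145129–5612071 in microglia and 30117025–37470972 in culture. The top gene took 17.9–27.0% of the counts in microglia, 2.01–9.51% in O4 cells, 0.243–4.82% in astrocytes and 0.762–0.933% in culture. In such bulk libraries, fewer cells of a type and less RNA per cell cannot be told apart.

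Levels can be compared between genes only per length. On the deposited TPM scale, which corrects for transcript length and library size, Ifitm3, a membrane protein that blocks virus entry, was the highest member in astrocytes, at 321 ± 36.0 at 3 months, 441 ± 77.7 at 6 months and 507 ± 18.5 at 10 months (SD, n = 4, 5 and 2). H2-K1, the class I heavy chain, was next, at 60.9 ± 6.03, 85.5 ± 11.2 and 92.7 ± 6.98 TPM at the same ages. In O4 cells Ifitm3 was highest at 6 months, at 53.6 ± 20.1 TPM, against 18.0 ± 7.12 TPM at 3 months (SD, n = 4 each), where Ifit2 (31.4 ± 1.82) and Xaf1 (30.5 ± 2.97) led. At 3 months the TPM of Ifit2 and Xaf1 in O4 cells were closer to each other than their own spread. In culture, on a scale of CPM per kilobase of exon, Ifitm3 again led, with 268 ± 47.8 under Omomyc and 308 ± 47.5 under vehicle (SD, n = 3 each). Microglial libraries read only the 3′ end of transcripts, so their counts do not scale with length. Of the genes for the interferons themselves, Ifnb1, Ifna4 and Ifng had 0 counts in every O4 library, which allows up to 0.0556 CPM over the 6-month libraries and 0.0472 CPM over the 3-month libraries (3 counts over the summed totals, counting error only). In microglia Ifnb1 and Ifna4 also had 0 counts, with limits of 0.138 CPM at 10 months and 0.210 CPM at 3 months, and Ifng had 4 counts at 10 months and 7 at 3 months, summed over the libraries. In astrocytes Ifng had 3, 4 and 3 summed counts at 3, 6 and 10 months, Ifnb1 had 1 count at 3 months and 0 later, and Ifna4 had 0.

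**Figure D1:**
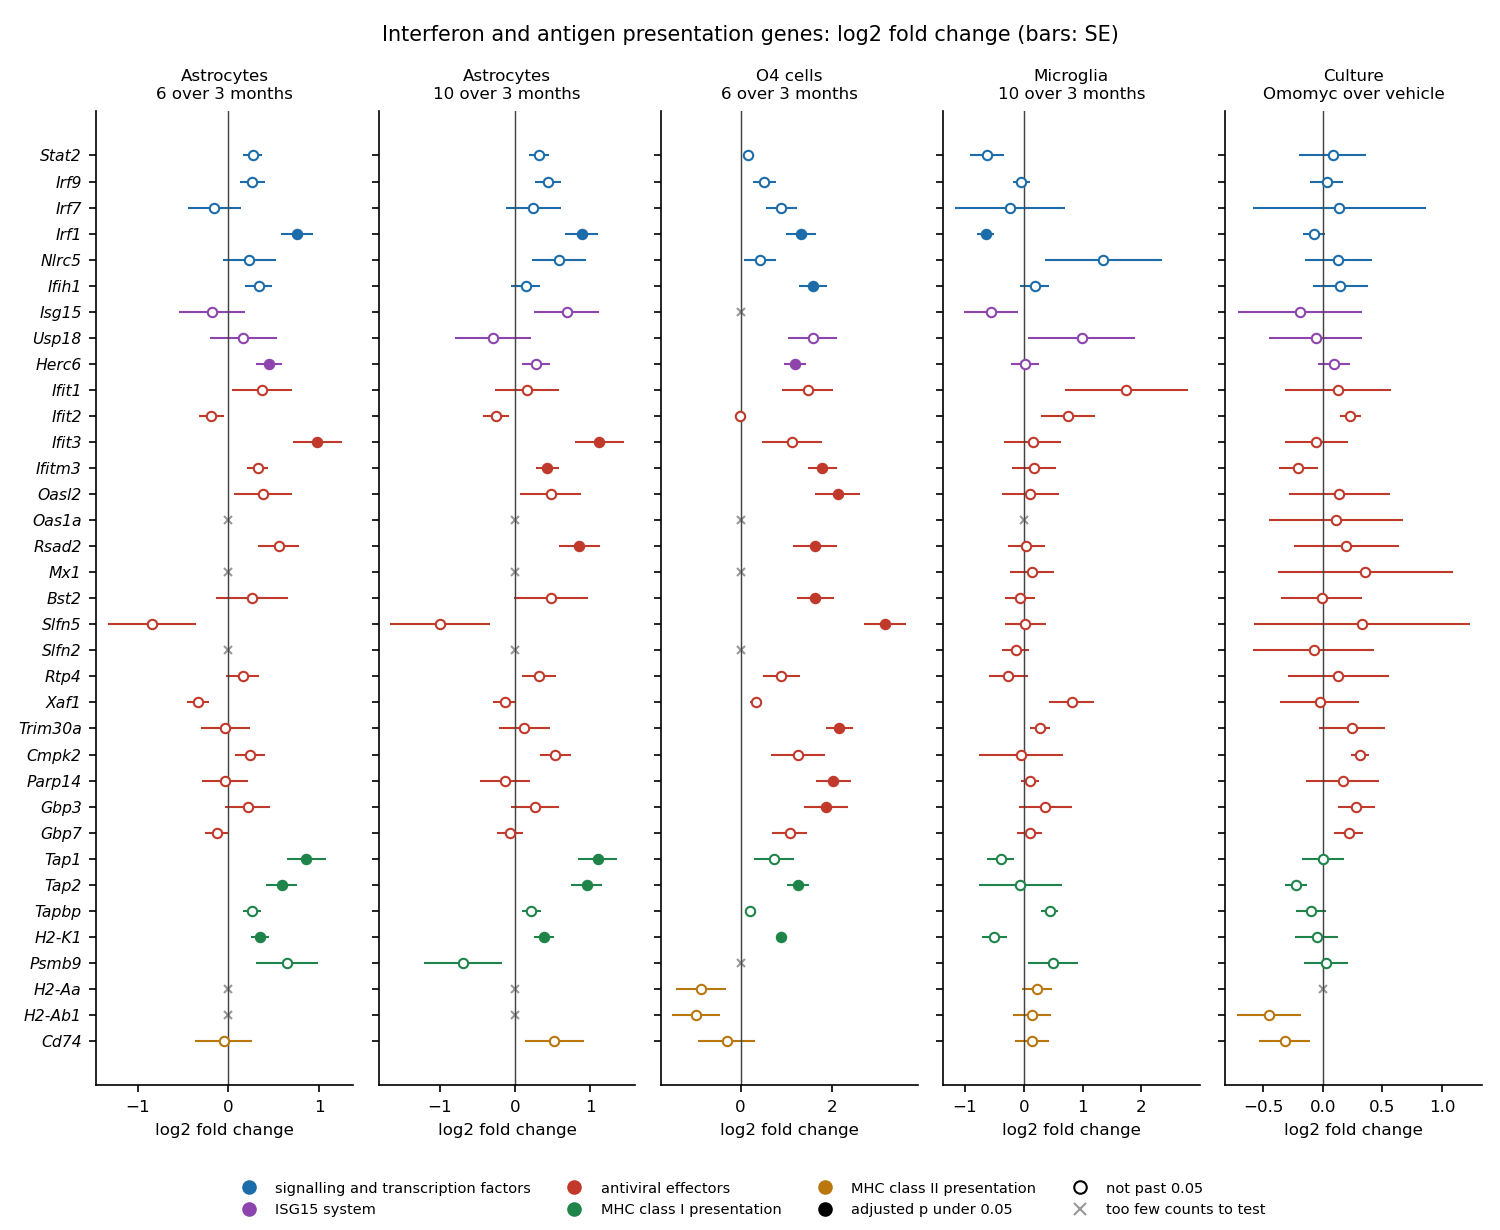
Log2 fold changes (x axis, with standard errors) of each member (rows) in 5 comparisons (panels), filled where the adjusted p was under 0.05 and crossed where a gene had too few counts. Filled points are most frequent for O4 cells at 6 over 3 months, where 13 of 30 members tested were higher.

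In O4 cells 13 of the 30 members tested were higher at 6 months than at 3 months, most of them antiviral effectors, and no class II gene passed the test. H2-K1 averaged 34.6 CPM at 6 months and 18.7 CPM at 3 months, and the antiviral genes Trim30a, Slfn5, Parp14, Ifitm3, Ifih1 and Oasl2 had larger fold changes. Of these 30 members, 13 rose and 0 fell at 6 months (edgeR's quasi-likelihood test, adjusted p under 0.05), where 14.9% of all genes rose and 9.46% fell. The median log2 fold change was 1.15 over the members, against 0.02 over all genes tested. By role, 8 of 15 antiviral effectors, 2 of 6 sensors and transcription factors, 2 of 4 class I genes, 1 of 2 ISG15-system genes and 0 of 3 class II genes rose. Isg15, Oas1a, Mx1, Slfn2 and Psmb9 had too few counts.

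H2-K1 had 27.9, 35.4, 35.5 and 39.8 CPM in the 6-month O4 libraries (replicates 1 to 4), against 18.1, 17.7, 18.3 and 20.8 CPM in the 3-month libraries. The groups did not overlap, and the log2 fold change was 0.89 ± 0.11 (SE, adjusted p 0.000577). Reads of H2-K1 can be shared with other class I heavy chain genes, so its level is uncertain. Tap2, a subunit of the peptide transporter, had 3.24, 4.18, 4.54 and 5.68 CPM at 6 months, against 1.53, 2.103, 2.20 and 1.39 CPM at 3 months. It rose by 1.26 ± 0.24 on the log2 scale (adjusted p 0.00497), again with no overlap. Its partner Tap1 had 0.647, 2.91, 2.16 and 4.04 CPM at 6 months, against 1.81, 1.23, 1.13 and 1.70 CPM at 3 months, and did not pass the test. Replicate 1 at 6 months was below every 3-month library there.

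Among the antiviral effectors, Trim30a, a regulator of inflammatory signalling, had 1.86, 3.57, 3.43 and 4.26 CPM at 6 months, against 0.834, 0.718, 0.716 and 0.618 CPM at 3 months. It rose by 2.16 ± 0.30 on the log2 scale (adjusted p 0.000849). Slfn5, a Schlafen family gene induced by type I interferon, had 1.38, 3.81, 6.55 and 4.37 CPM at 6 months, against 0.486, 0.462, 0.307 and 0.541 CPM at 3 months. It showed the largest log2 fold change of the members tested, 3.17 ± 0.46 (adjusted p 0.00117). Neither gene overlapped between the ages, and both hold an ISRE core in the stretches printed above. Trim30a and Slfn5 belong to families of similar genes, so their counts are uncertain. Ifitm3 had 6.72, 8.66, 15.2 and 12.9 CPM at 6 months, against 2.08, 2.67, 2.86 and 5.02 CPM at 3 months (1.79 ± 0.32, adjusted p 0.00362). Parp14, an ADP-ribosyltransferase, had 1.86, 5.09, 6.93 and 6.22 CPM at 6 months, against 0.973, 1.59, 0.972 and 1.31 CPM at 3 months (2.04 ± 0.38, adjusted p 0.00425). Both were higher in every 6-month library than in any 3-month library.

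Ifih1 encodes MDA5, a sensor of double-stranded RNA. It had 3.07, 5.33, 7.74 and 7.64 CPM at 6 months, against 2.50, 2.05, 1.38 and 2.01 CPM at 3 months (1.58 ± 0.31, adjusted p 0.00510). Herc6, the main ligase for ISG15 in mice, had 2.59, 3.21, 3.72 and 4.48 CPM at 6 months, against 1.67, 1.23, 1.74 and 1.47 CPM at 3 months (1.18 ± 0.24, adjusted p 0.00616). With H2-K1, Tap2, Trim30a, Slfn5, Ifitm3 and Parp14, these made 8 members without overlap between the ages, out of the 30 tested. Over all genes tested 26.5% did not overlap in either direction, a share near that of the members.

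The other 5 risen members overlapped between the ages, each with a low 6-month replicate 1. Gbp3, a guanylate-binding protein of host defence, had 1.86, 9.39, 10.2 and 12.7 CPM at 6 months, against 1.60, 2.87, 2.46 and 2.24 CPM at 3 months (1.87 ± 0.48, adjusted p 0.0221). The transcription factor Irf1 had 2.18, 5.51, 5.29 and 6.44 CPM at 6 months, against 2.71, 1.64, 1.89 and 1.47 CPM at 3 months (1.33 ± 0.33, adjusted p 0.0157). For Gbp3 and Irf1 replicate 1 lay within the 3-month range and the other 6-month libraries lay above it. Oasl2, an oligoadenylate synthetase-like protein, rose by 2.13 ± 0.49, Bst2, which tethers budding virus to the cell, by 1.64 ± 0.40, and Rsad2, the antiviral enzyme viperin, by 1.64 ± 0.48 (adjusted p 0.0125, 0.0138 and 0.0330). Replicate 1 at 6 months was the lowest of its group for 26 of the 30 members tested. Without it 24 members rose, where the fit of all libraries gave 13. The calls of Gbp3 and of Rsad2 were each lost in 6 of the 8 fits that left out 1 library.

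The 17 members that did not pass had log2 fold changes between -0.98 (H2-Ab1) and 1.58 (Usp18, the enzyme that removes ISG15, adjusted p 0.0536). Ifit1 had 1.13, 6.54, 4.02 and 10.48 CPM at 6 months, against 2.50, 2.103, 1.13 and 2.24 CPM at 3 months (1.47, adjusted p 0.0847), and here too replicate 1 alone was low. Ifit2 and Stat2 were among the members that differed least. Ifit2 had 33.3, 30.2, 29.2 and 34.3 CPM at 6 months, against 34.3, 31.4, 31.7 and 30.3 CPM at 3 months, a log2 difference of -0.01. Stat2, a subunit of the ISRE-binding complex, differed by 0.17. In class II, H2-Aa had 0.243, 0.908, 1.04 and 0.328 CPM at 6 months, against 1.95, 1.74, 0.665 and 0.464 CPM at 3 months, with overlapping groups and a log2 difference of -0.87 (adjusted p 0.286). H2-Ab1 (-0.98, adjusted p 0.200) and Cd74 (-0.30, adjusted p 0.760) did not pass either.

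**Figure D2:**
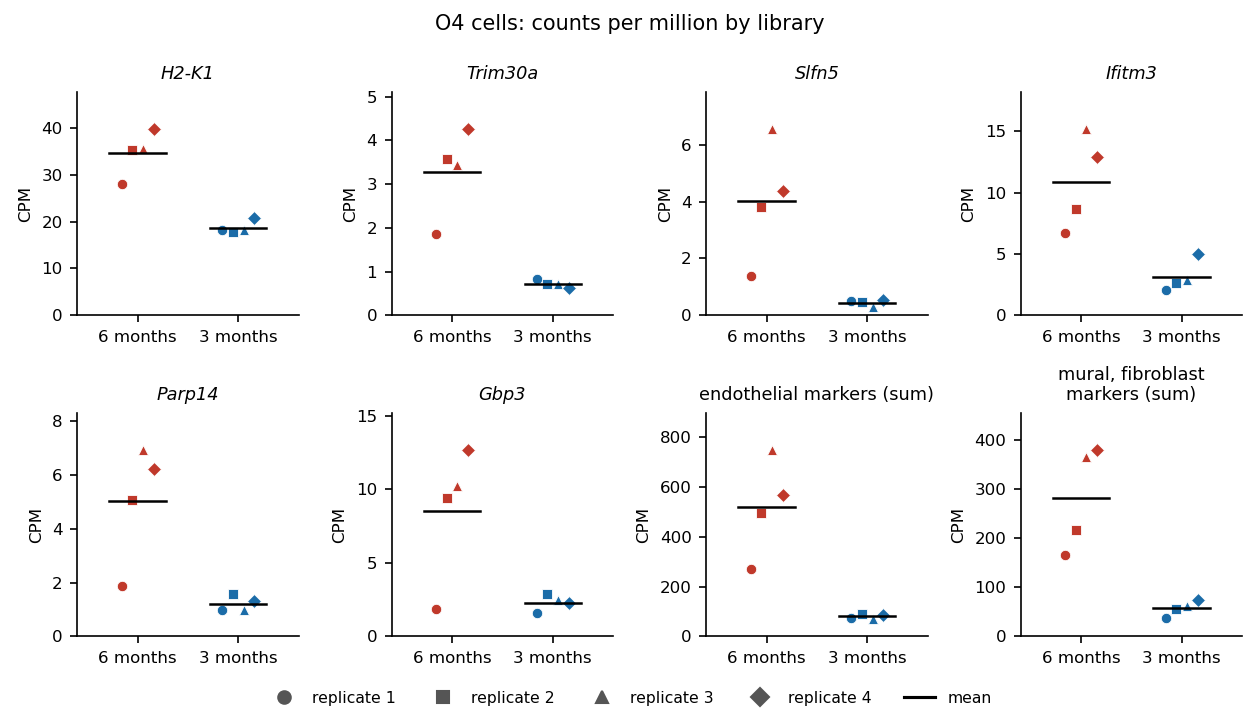
CPM of 6 members and the summed CPM of endothelial and of mural and fibroblast markers in each O4 library at 6 months (left) and 3 months (right), with points for libraries and bars for group means. The endothelial sum lies at 272–747 at 6 months and at 71.7–90.8 at 3 months, and H2-K1 at 27.9–39.8 and 17.7–20.8 CPM.

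Beside these changes, markers of blood vessel cells were higher in the 6-month O4 libraries. The endothelial marker sum was 272, 495, 747 and 568 CPM at 6 months (replicates 1 to 4), against 72.5, 90.8, 71.7 and 86.1 CPM at 3 months, and 10 of 10 endothelial markers rose, with a median log2 fold change of 2.77. The mural and fibroblast sum was 166, 216, 366 and 379 CPM at 6 months, against 38.2, 56.6, 61.6 and 74.2 CPM at 3 months, and 6 of 7 tested markers rose. Replicate 1, the lowest 6-month library for most members, was also the lowest for both sums. The choroid plexus and ependymal sum was 328–3843 CPM at 6 months and 86.3–953 CPM at 3 months, and 3 of 6 neuronal markers rose (36.7–81.6 CPM against 17.5–29.7 CPM). The microglial sum was 61.3–70.2 CPM at 6 months and 50.6–92.1 CPM at 3 months, with 0 of 8 tested markers higher and 1 lower, and the lymphocyte sum was at or below 1.59 CPM in every O4 library. Of the sorted cells' own markers, 2 of 8 oligodendrocyte markers were higher and 5 lower. Their sum was 106432–167292 CPM at 6 months and 79208–108388 CPM at 3 months. Of 6 oligodendrocyte precursor markers 0 were higher and 2 lower. The part of these shifts, in the sorted cells and in other cells, in the rise of the members was not tested.

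The rest of the pathway, from lists that hold no member, is given by counts, beside 14.9% of all genes that rose and 9.46% that fell. Of 34 other interferon-stimulated genes, 19 rose and 0 fell (median log2 fold change 1.16). Helz2, a helicase induced by interferon, had 5.75, 11.3, 12.96 and 13.1 CPM at 6 months, against 1.67, 2.41, 2.66 and 3.09 CPM at 3 months (2.13 ± 0.28, adjusted p 0.000709). Of 14 other class I genes, 5 rose and 3 fell. The immunoproteasome subunit Psmb8 rose by 1.84 (adjusted p 0.00275), and H2-Q4, H2-Q6, H2-T23 and the proteasome activator Psme1 rose with it. The general chaperones Pdia3, Canx and Calr fell by 0.43, 0.36 and 0.36 on the log2 scale. B2m, the class I light chain, differed by 0.69 (adjusted p 0.181). Of 20 receptors, sensors and signalling genes, only Ddx58 (RIG-I) and Tyk2 rose and only Stat3 and Jak1 fell, shares near those of all genes. Of 6 other class II genes, 0 passed.

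In astrocytes a smaller set of members was higher at the later ages: Irf1, the transporter genes Tap1 and Tap2, H2-K1 and Ifit3 passed the test at both 6 and 10 months against 3 months. At 6 months against 3 months 6 of 30 members rose and 0 fell, where 6.28% of all genes rose, 8.29% fell and 14.6% did either. The median log2 fold change was 0.26 over the members and 0.00 over all genes. At 10 months against 3 months 7 of 30 rose and 0 fell, where 11.5% of all genes rose, 11.2% fell and 22.7% did either, with medians of 0.32 and 0.02. Both comparisons share the 3-month libraries. Oas1a, Mx1, Slfn2, H2-Aa and H2-Ab1 had too few counts. By role at 6 months, 3 of 5 class I genes, 1 of 6 sensors and transcription factors, 1 of 3 ISG15-system genes and 1 of 15 antiviral effectors rose.

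Irf1 had 3.99, 6.65, 4.62 and 4.83 CPM at 3 months, 8.69, 9.61, 9.41, 7.35 and 7.17 at 6 months and 8.46 and 9.92 at 10 months. Every later library was above every 3-month library, and 13.1% of all genes tested did not overlap between 6 and 3 months. The log2 fold change was 0.75 ± 0.18 at 6 over 3 months (adjusted p 0.00963) and 0.89 ± 0.22 at 10 over 3 months (adjusted p 0.00836).

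Tap1 had 4.64, 6.38, 3.40 and 4.00 CPM at 3 months, 8.09, 6.25, 9.72, 9.49 and 7.00 at 6 months and 12.2 and 7.33 at 10 months. Replicate 2 at 3 months was the only one within the 6-month range. It rose by 0.86 ± 0.21 at 6 months (adjusted p 0.0134) and by 1.10 ± 0.26 at 10 months (adjusted p 0.00717). Tap2 had 15.5, 16.2, 12.2 and 9.76 CPM at 3 months, 25.9, 18.3, 20.1, 21.1 and 14.3 at 6 months and 25.0 and 26.2 at 10 months. It rose by 0.58 ± 0.17 at 6 months (adjusted p 0.0285) and by 0.95 ± 0.21 at 10 months (adjusted p 0.00408). The ages 10 and 3 months did not overlap for Tap2, as for 45.4% of all genes with so few libraries at 10 months, while replicate 5 at 6 months lay within the 3-month range.

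H2-K1 had 57.7, 54.2, 57.2 and 45.9 CPM at 3 months, 78.7, 70.8, 69.5, 67.2 and 55.5 at 6 months and 73.2 and 66.3 at 10 months. The log2 fold changes were small, 0.35 ± 0.10 at 6 months (adjusted p 0.0317) and 0.38 ± 0.13 at 10 months (adjusted p 0.0439). Psmb9, which shares its promoter region with Tap1, had 0.539–1.09 CPM at 3 months, 1.05–1.44 at 6 months and 0.278–0.750 at 10 months, and passed no test.

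Ifit3, which binds viral RNA together with IFIT1, had 6.69, 8.15, 9.65 and 6.44 CPM at 3 months, 24.1, 12.7, 13.6, 13.7 and 11.9 at 6 months and 23.7 and 9.55 at 10 months. It rose by 0.98 ± 0.27 at 6 months (adjusted p 0.0235), without overlap, and by 1.12 ± 0.32 at 10 months (adjusted p 0.0227), where replicate 2 lay within the 3-month range. The 10-month value rests on replicate 1: without it the log2 fold change was 0.33, and without replicate 2 it was 1.64. Reads can be shared with Ifit3b, which also rose (0.97 and 0.83). Herc6 had 10.4, 11.7, 8.56 and 11.99 CPM at 3 months, 13.5, 16.5, 13.3, 12.8 and 17.5 at 6 months and 14.5 and 11.7 at 10 months. It rose at 6 months by 0.45 ± 0.15 (adjusted p 0.0458) but not at 10 months (0.28, adjusted p 0.291).

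Rsad2 and Ifitm3 passed only at 10 months, and the difference between the later ages was itself not past the threshold for either. Rsad2 had 4.53, 4.07, 6.52 and 2.60 CPM at 3 months, 7.49, 6.25, 5.26, 6.37 and 6.16 at 6 months and 7.39 and 7.98 at 10 months (0.85 ± 0.27 at 10 over 3 months, adjusted p 0.0319). Ifitm3 had 55.4, 66.3, 67.7 and 71.8 CPM at 3 months, 77.9, 62.8, 80.8, 81.8 and 103 at 6 months and 90.0 and 86.2 at 10 months (0.43 ± 0.15 at 10 over 3 months, adjusted p 0.0437). Both 10-month libraries were above all 3-month libraries for both genes, while 45.4% of all genes did not overlap between these ages. Between 10 and 6 months 0 of 30 members passed edgeR's test, where 0.908% of all genes did (0.574% higher and 0.334% lower), and the libraries of the 2 ages did not overlap for 23.2% of all genes. At an unadjusted p under 0.05 there were 0 higher and 1 lower, Psmb9, and DESeq2 called 0, with no adjusted p for 4.

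**Figure D3:**
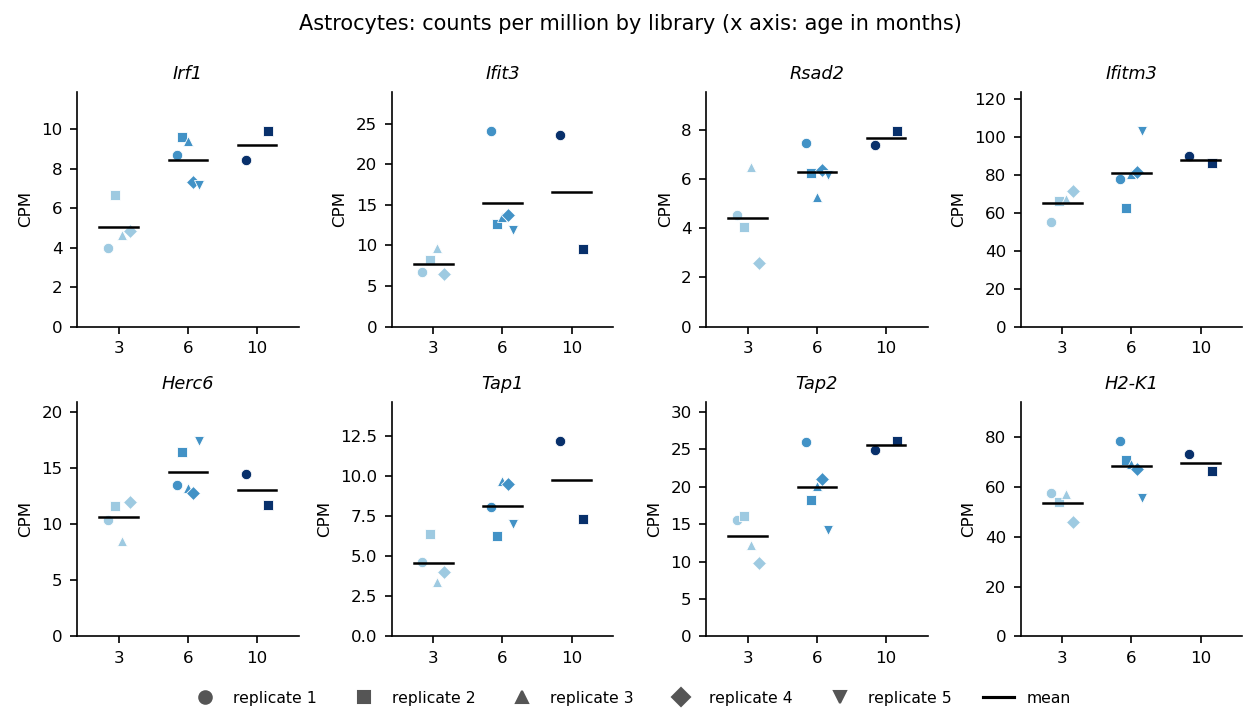
CPM of 8 members in each astrocyte library at 3, 6 and 10 months, with points for libraries and bars for group means. Irf1 lies at 3.99–6.65 CPM at 3 months and at 7.17–9.92 CPM in all later libraries, while for H2-K1 6-month replicate 5 (55.5 CPM) lies within the 3-month range.

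These counts depend on single libraries. At 6 over 3 months 2 members rose without 3-month replicate 4, and 3 rose without 6-month replicate 3 or replicate 4. At 10 over 3 months 2 rose without 10-month replicate 1, 3 without 10-month replicate 2 and 4 without 3-month replicate 1. Irf1 at 6 months and Tap2 at 10 months kept their calls in every alternative run, 14 and 11 of them. Of the 9 fits at 6 over 3 months that left out 1 library, the call was lost in 7 for Herc6, 5 for Tap2, 4 for H2-K1, 2 for Ifit3 and 1 for Tap1. Of the 6 such fits at 10 over 3 months, it was lost in all 6 for H2-K1, in 5 for Ifitm3, 4 for Rsad2, 2 for Ifit3 and 1 each for Irf1 and Tap1. The 24 members that did not pass at 6 months lay between -0.84 (Slfn5, adjusted p 0.266) and 0.65 (Psmb9, adjusted p 0.215), and Xaf1 was at -0.34 (adjusted p 0.0673).

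Of 39 other interferon-stimulated genes 7 rose and 1 fell at 6 months, and 2 rose at 10 months. Parp12 rose by 0.49 at 6 months (adjusted p 0.00282), while Znfx1 fell by 0.52. Among other class I genes 0 of 14 rose at either age. At 6 months 3 fell and at 10 months 2 fell, where 8.29% and 11.2% of all genes fell. The sum of these genes was 1830–2143 CPM at 3 months, 1421–1645 at 6 months and 1546–1652 at 10 months. Calr, a chaperone of class I assembly and of many other proteins, fell by 0.69 ± 0.11 at 6 months (adjusted p 0.00126). B2m had 70.8, 83.6, 84.5 and 72.4 CPM at 3 months, 77.0, 71.3, 66.7, 64.3 and 81.6 at 6 months and 68.9 and 40.0 at 10 months, and fell by 0.52 at 10 over 3 months (adjusted p 0.0362). Replicate 2 at 10 months was the lowest of these. Of 21 receptors, sensors and signalling genes 1 rose and 0 fell at 6 months, where 6.28% of all genes rose and 8.29% fell. At 10 months 4 of these 21 rose and 1 fell, where 11.5% of all genes rose and 11.2% fell. Socs3, an inhibitor of cytokine signalling, had 4.64, 6.38, 5.03 and 4.52 CPM at 3 months, 7.94, 4.49, 7.62, 7.35 and 9.45 at 6 months and 17.8 and 15.5 at 10 months, a log2 fold change of 1.71 ± 0.22 at 10 over 3 months (adjusted p 0.000192).

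Other cell types' markers moved too. The microglial sum in astrocyte libraries was 45.1–51.6 CPM at 3 months, 53.4–70.9 at 6 months and 58.1–64.7 at 10 months, with 2 and 3 of 8 markers higher at 6 and at 10 months against 3 months. Border macrophage markers summed to 2.58–5.09, 4.88–10.5 and 8.46–11.6 CPM at 3, 6 and 10 months. The endothelial sum ran the other way, 208–388, 153–346 and 124–209 CPM, with 2 and 4 of 10 markers lower, and 4 of 8 oligodendrocyte markers fell at each age (23055–36179, 15682–23836 and 16360–25385 CPM). Choroid plexus and ependymal markers moved both ways, with 3 higher and 2 lower of 8 at 6 months and 2 higher and 4 lower at 10 months (476–1833, 569–721 and 496–669.8 CPM at 3, 6 and 10 months). At 10 months 3 of 9 mural and fibroblast markers were lower and 1 higher, and 2 of 6 oligodendrocyte precursor markers were higher. The part of these shifts in the members' changes was not tested.

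Between the cell types, astrocytes had more of the class I loading genes and of several antiviral effectors, and O4 cells had more Xaf1 and Ifit2. The test joined the 3-month and 6-month libraries of both, made with the same kit. Of 32 members, 15 were higher and 6 lower in astrocytes than in O4 cells, where 38.7% of all genes were higher and 35.9% lower, so calls in both directions were common over all genes too (74.6% either way). The median log2 difference was 0.39 over the members and 0.03 over all genes.

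Ifitm3 differed most, with a lowest, median and highest value of 49.2, 62.3 and 94.4 CPM in 9 astrocyte libraries, against 2.37, 6.53 and 16.6 CPM in 8 O4 libraries (log2 difference 3.33 ± 0.17, adjusted p 1.78e-12). Tap2 had 8.46, 14.5 and 23.03 CPM in astrocytes, against 1.57, 3.03 and 6.20 CPM in O4 cells (2.19 ± 0.15), and Herc6 had 7.59, 11.6 and 15.9 CPM, against 1.43, 2.41 and 4.89 CPM (2.12 ± 0.13). None of these overlapped between the cell types, as for 39.1% of all genes tested. Cmpk2, a mitochondrial nucleotide kinase next to Rsad2, had 9.20, 11.9 and 19.0 CPM in astrocytes, against 0.533, 2.14 and 8.35 CPM in O4 cells (2.18 ± 0.29). Rsad2 itself was higher by 1.69 ± 0.26. H2-K1 had 39.8, 51.2 and 69.9 CPM in astrocytes, against 20.6, 27.1 and 43.4 CPM in O4 cells (0.92 ± 0.08). Tapbp, the tapasin that bridges TAP and class I, was higher by 0.76 ± 0.07.

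Xaf1, a pro-apoptotic zinc finger protein, had 13.2, 17.8 and 22.8 CPM in astrocytes, against 37.4, 46.1 and 62.9 CPM in O4 cells (-1.39 ± 0.09). Ifit2 had 13.8, 16.9 and 20.5 CPM in astrocytes, against 31.8, 36.3 and 39.0 CPM in O4 cells (-1.02 ± 0.08). Neither overlapped, again beside the 39.1% of all genes. The others lower in astrocytes were Cd74 (-1.79 ± 0.37), H2-Aa (-1.46), Nlrc5 (-1.03) and Stat2 (-0.23). Of 8 tested microglial markers 6 were lower in astrocytes and 1 higher, and 3 of 3 border macrophage markers were lower. Of 9 mural and fibroblast markers 8 were higher in astrocyte libraries (median log2 difference 2.06), beside members such as Ifitm3, H2-K1 and Tap2 that were higher there. The part of these other cells in the members' differences was not tested.

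**Figure D4:**
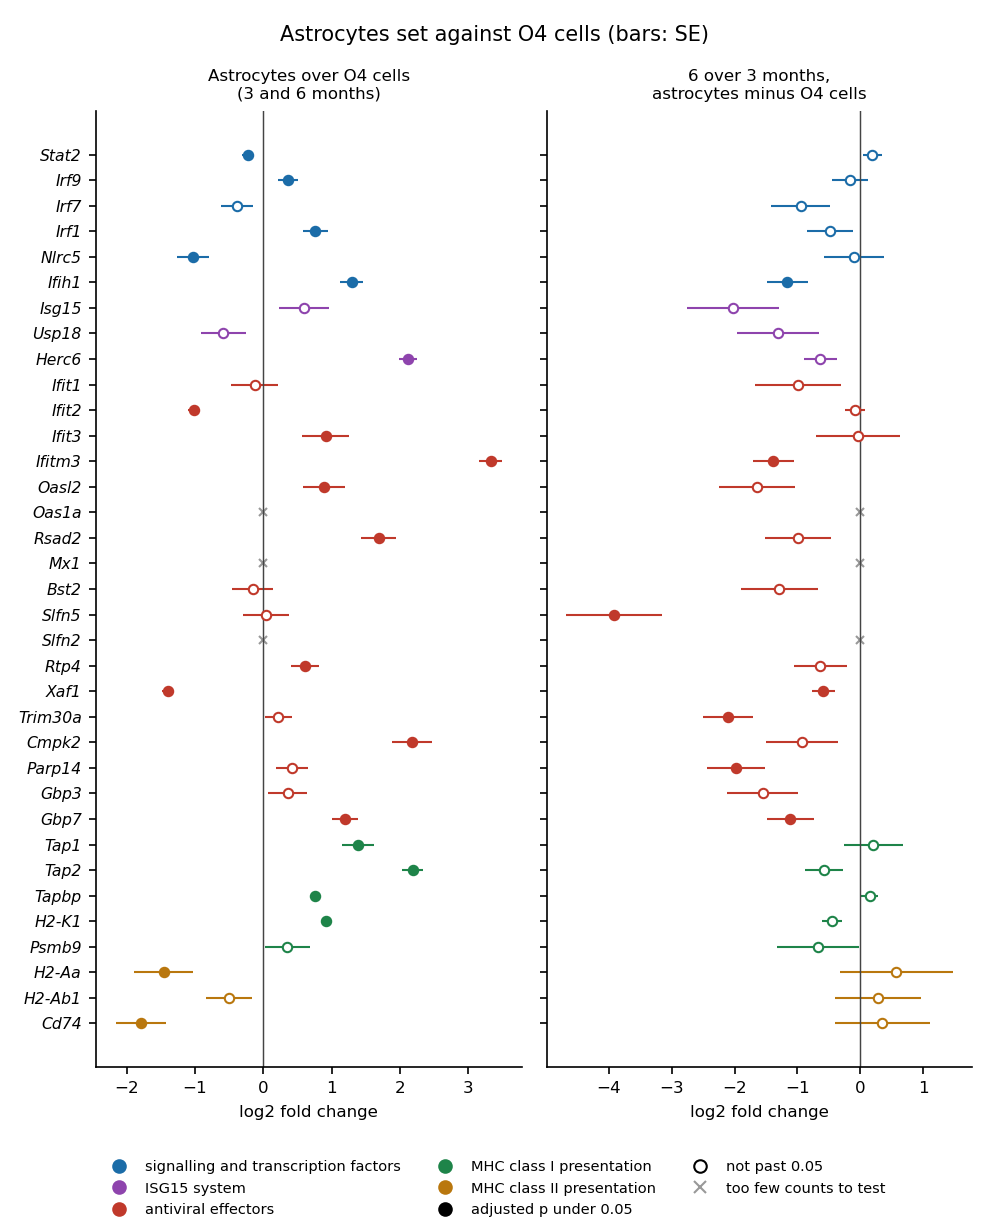
Left, log2 difference of each member between astrocytes and O4 cells at 3 and 6 months. Right, the 6 over 3 month log2 change in astrocytes minus that in O4 cells, both with standard errors and filled where the adjusted p was under 0.05. On the left 15 members lie filled above 0 and 6 below, and on the right 7 lie filled below 0.

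The age change itself differed between the cell types for 7 members, each with a smaller 6 over 3 month change in astrocytes than in O4 cells. Of 32 members 0 were higher and 7 lower on this interaction test, where 6.44% of all genes were higher, 9.97% lower and 16.4% either, and the median was -0.66 over the members and 0.02 over all genes. Trim30a differed by -2.10 ± 0.40 (adjusted p 0.00120), Slfn5 by -3.92 ± 0.76 (adjusted p 0.00168), Parp14 by -1.97 ± 0.46 (adjusted p 0.00551) and Ifitm3 by -1.39 ± 0.33 (adjusted p 0.00742). Ifih1 (-1.16 ± 0.33), Xaf1 (-0.59 ± 0.18) and Gbp7 (-1.11 ± 0.38) also passed, with adjusted p of 0.0209, 0.0301 and 0.0498. In astrocytes Slfn5 had 2.85, 0.160, 1.80, 0.780 and 0.928 CPM at 6 months, against 0.647, 2.58, 3.26 and 2.75 CPM at 3 months, so the groups overlapped there. H2-K1 was just outside the threshold (-0.46, adjusted p 0.0509).

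No member of class I or class II passed this test. The count was 4 without O4 3-month replicate 3 or O4 6-month replicate 3, 11 without astrocyte 6-month replicate 1 and 15 without O4 6-month replicate 1, and Gbp7 was lost in 14 of the 17 fits that left out 1 library. Beside it, 10 of 10 endothelial markers (median -3.34) and 8 of 9 mural and fibroblast markers were lower on the same test, and their part was not tested. Of the promoters at hand, 5 of the 6 of members that passed held an ISRE core, against 7 of the 19 of members that did not. Among members that rose with age in O4 cells the same count was 7 of 11, against 4 of 12 of those that did not. In astrocytes it was 1 of 5 of those that rose at 6 months, against 11 of 19. For those that rose in astrocytes at 10 months it was 3 of 6, against 9 of 18, an equal share. Ifih1, Ifitm3, Slfn5 and Trim30a, all with a core, passed both in O4 cells and on the interaction test. The counts of those comparisons are therefore not independent, and whether the core goes with the calls was not tested.

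In microglia the members were nearly all without a detected difference between 10 and 3 months. Only Irf1 passed, and it fell. Of 34 members tested 0 rose and 1 fell, where 1.94% of all genes rose and 1.27% fell, and the median log2 fold change was 0.11 over the members and 0.00 over all genes. At an unadjusted p under 0.05 there were 2 higher and 3 lower, and DESeq2 called 0 higher and 1 lower, with no adjusted p for 7. Oas1a had too few counts. The uncalled members lay between -0.62 (Stat2) and 1.75 (Ifit1, adjusted p 0.430).

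Irf1 had 83.4, 74.6, 74.2 and 87.5 CPM at 10 months, against 146, 116 and 113 CPM at 3 months. The groups did not overlap, as for 16.8% of all genes tested, and the log2 fold change was -0.65 ± 0.15 (adjusted p 0.0267). The call was lost without any single one of the 10-month libraries and without 3-month replicate 1. H2-K1 had 578, 450.1, 472 and 441 CPM at 10 months, against 1043, 501 and 515 CPM at 3 months (-0.50, adjusted p 0.230). Its 3-month replicate 1 stood far above the others, and the summed neutrophil and monocyte markers were 1954 CPM in that library, against 435–712 CPM at 10 months and 363–647 CPM in the other 3-month libraries. Their part in these values was not tested.

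Tapbp had 179, 169, 164 and 214 CPM at 10 months, against 154, 111 and 134 CPM at 3 months (0.44, adjusted p 0.117), and the groups did not overlap. Stat2 had 12.98, 12.1, 15.9 and 12.3 CPM at 10 months, against 25.4, 19.0 and 16.9 CPM at 3 months (-0.62, adjusted p 0.290), again without overlap. Neither passed the test. H2-Aa had 93.7, 64.7, 83.6 and 98.5 CPM at 10 months, against 113, 47.7 and 56.6 CPM at 3 months, and its groups overlapped. Outside the members few genes passed, where 1.94% of all genes rose and 1.27% fell. Of 10 other class II genes 1 rose, the lysosomal protease Ctss, which trims the class II invariant chain (0.82 ± 0.15, adjusted p 0.0121). Of 13 other class I genes 1 rose, Calr (0.57, adjusted p 0.0299). Of 43 other interferon-stimulated genes 1 rose, Lgals3bp (1.29, adjusted p 0.0380), and 1 fell, the helicase gene Ddx60 (-0.87, adjusted p 0.0384). Of 23 receptors, sensors and signalling genes 0 passed. Of 10 microglial markers 3 rose, and their sum was 32591–43993 CPM at 10 months, against 24919–30750 CPM at 3 months.

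In cultured astrocytes no member differed detectably between unpaired Omomyc and vehicle groups, and with replicates paired Cmpk2 alone was higher. This comparison asks whether blocking MYC changes the glial programme, and it uses vehicle as control. In the unpaired fit 0 of 34 members passed edgeR's test, where 0.0186% of all genes did. At an unadjusted p under 0.05 there were 2 higher and 1 lower, and DESeq2 called 0. The median log2 fold change was 0.09 over the members and 0.00 over all genes, and H2-Aa had too few counts.

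The replicate number carried much of the spread. Irf7, the master factor of the type I response, had 15.9, 33.7 and 88.7 CPM under Omomyc (replicates 1 to 3), against 15.8, 35.9 and 74.1 CPM under vehicle. Slfn5 had 6.66, 12.8 and 55.8 CPM under Omomyc, against 8.02, 10.7 and 41.3 CPM under vehicle, and Isg15, the ubiquitin-like modifier, had 9.26, 18.2 and 32.2 CPM, against 10.95, 24.5 and 32.8 CPM. Replicate 3 was the highest for 34 of 35 members under Omomyc and for 28 of 35 under vehicle, and replicate 1 the lowest for 33 and 26. The microglial marker sum was also highest in replicate 3, at 1871, 2207 and 3638 CPM under Omomyc, against 1573, 1940 and 2826 CPM under vehicle, and its part in the members' spread was not tested.

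With the replicate number as a block 1 of 34 members was higher and 0 lower, where 2.23% of all genes were higher and 1.84% lower. At an unadjusted p under 0.05 in edgeR's test, this paired fit had 5 members higher and 3 lower. Cmpk2 had 45.4, 50.2 and 50.5 CPM under Omomyc, against 40.1, 38.9 and 38.7 CPM under vehicle, without overlap (12.8% of all genes). Its log2 fold change was 0.31 ± 0.07, with an adjusted p of 0.0424 paired and 0.531 unpaired. Gbp3 had 50.1, 66.1 and 70.8 CPM under Omomyc, against 44.4, 50.9 and 58.5 CPM under vehicle, higher in 3 of 3 pairs and just outside the threshold (0.28, paired adjusted p 0.0544). Ifit2 had 93.4, 90.9 and 102 CPM under Omomyc, against 89.7, 78.0 and 76.0 CPM under vehicle (0.23, paired adjusted p 0.136).

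Among class I genes 0 of 5 passed in either fit. Tap2 had 70.2, 72.9 and 74.0 CPM under Omomyc, against 80.1, 95.2 and 78.1 CPM under vehicle (-0.22, paired adjusted p 0.138), and H2-K1 had 362, 457 and 549 CPM, against 379, 529.7 and 511 CPM (-0.06). Ifitm3 had 153, 174 and 217 CPM under Omomyc, against 172, 226 and 229 CPM under vehicle (-0.21, paired adjusted p 0.146). Of the 35 members, 9 were higher under Omomyc in all 3 pairs, 12 in 2, 10 in 1 and 4 in 0. In the paired fit 5 of 10 microglial markers and 2 of 8 endothelial markers were also higher. So were 1 of 8 astrocyte, 1 of 6 oligodendrocyte and 1 of 5 oligodendrocyte precursor markers. The part of these cells in the call of Cmpk2, and in those of the genes named next, was not tested. Outside the members most genes did not pass the paired fit, where 2.23% of all genes were higher and 1.84% lower. Of 26 receptors, sensors and signalling genes 2 were higher, Irf8 (0.34) and Tlr7 (0.49), and 2 lower, Ikbke (-0.52) and Socs3 (-0.50). Of 50 other interferon-stimulated genes 2 were higher, Oas3 (0.45) and Slfn8 (0.45), and 1 lower, Cxcl10 (-0.67), a chemokine induced by interferon. Of 8 other class II genes 1 was higher, Ctss (0.36), and of 16 other class I genes 0 passed. The adjusted p of these genes lay between 0.00656 and 0.0377.

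**Figure D5:**
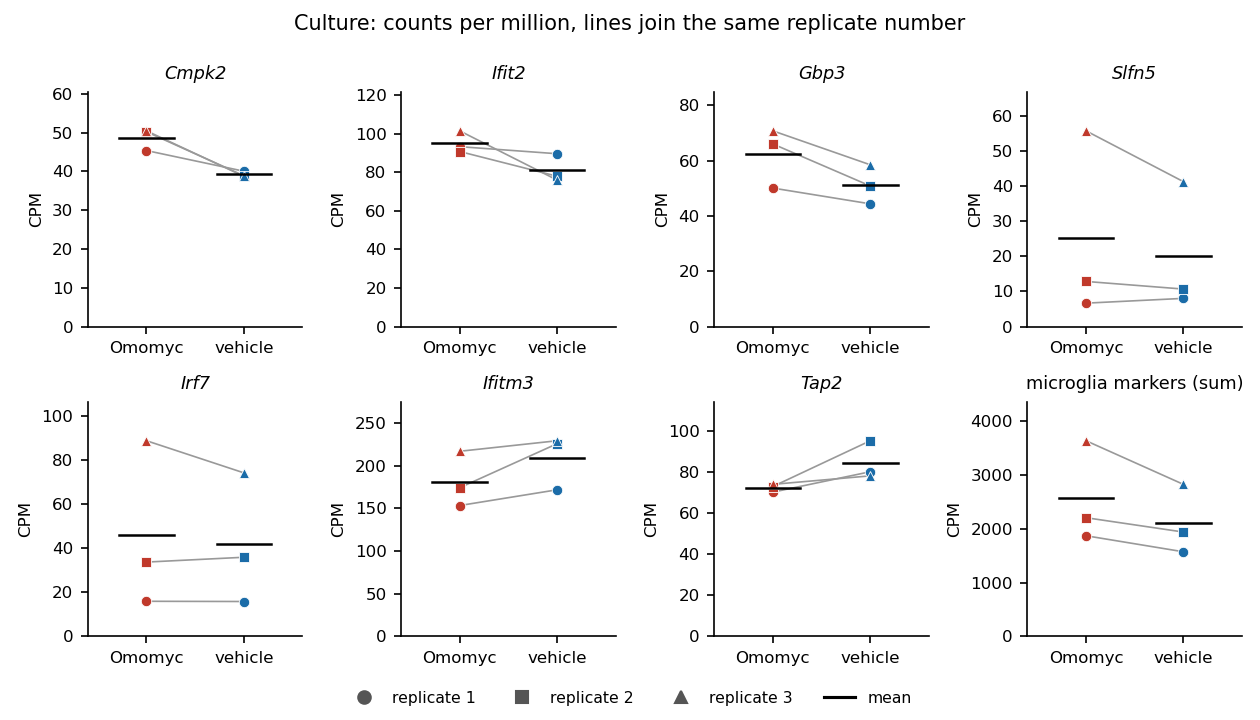
CPM of 7 members and the summed CPM of 10 microglial markers under Omomyc (left) and vehicle (right), with lines joining equal replicate numbers. Cmpk2 lies at 45.4–50.5 CPM under Omomyc and 38.7–40.1 CPM under vehicle, while Slfn5 and Irf7 are highest in replicate 3 under both.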

How the data were processed

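Messenger RNA was measured in 32 libraries in 4 tables. Astrocyte and O4 libraries were poly(A) libraries with molecular identifiers, microglial libraries read 3′ ends, and culture libraries used another poly(A) kit with molecular identifiers, per the labels' protocols. The authors deposited raw counts per gene and, for astrocytes and O4 cells, TPM. The tools named by the submitters' processing notes are featureCounts 2.0.1, STAR 2.7.7a, fastp, DESeq2 and UMI-tools 1.0.1, with builds GRCm39, GRCm38.p6 and mm10. The sources used here do not say which table used which build or whether counting used strand, so antisense and overlapping genes are uncertain, as are near-identical copies (H2-K1 and other class I genes, Ifit3 and Ifit3b, Oas1a, Gbp, Slfn and Trim30 genes). Symbols were matched for 52093 of 53700 microglial and 17559 of 17572 culture identifiers, through GENCODE vM21 and name tables. Positions come from GENCODE vM21, and promoters from RefSeq.

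From the deposited counts, edgeR 4.0.16 with limma 3.58.1 in R 4.3.3 gave TMM-scaled CPM and quasi-likelihood tests across all genes that passed filterByExpr (minimum count 10), with Benjamini-Hochberg adjustment over those genes and a threshold of 0.05. All astrocyte ages shared 1 fit. Astrocytes and O4 cells, made with the same kit, were joined at 3 and 6 months, and other tables were never joined. Alternatives were DESeq2 1.42.0, its size factor scaling, no filter, fits of 2 ages, a replicate block, and each library left out. The tests were checked on simulated data with the same spread for all genes and no shared replicate effect. That check does not give the error rates in these libraries. Same-numbered Omomyc and vehicle libraries deviated together (r = 0.628, 0.432 and 0.682), so the replicate numbers pair the cultures, and the paired fit is given beside the unpaired one. Replicates of every group differed by more than sampling noise. Values per library are given for called members (up to the 10 smallest p in each direction), for at least 1 member of each role and for a few uncalled ones, and from the lists of other pathway genes for called genes of smallest p, up to 4 a list. Other genes named (in part those just outside the threshold, and B2m) were chosen after their values were seen. The members and lists were chosen with earlier results of these data known.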

Additional observations from a re-analysis of the deposited data

Results flagged for a closer look

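Single libraries stood apart from the rest of their group in 5 of 175 groups of members looked at. Chance flags about 1 in 20 groups. Astrocyte 6-month replicate 1 was the highest of its group for Ifit3 (24.1 CPM, with the nearest at 13.7), Bst2 (5.10 CPM, with the nearest at 2.02) and Gbp3 (12.4 CPM, with the nearest at 6.92). Trim30a was highest in astrocyte 3-month replicate 2, at 2.99 CPM, with the nearest at 2.17. Nlrc5 was highest in microglial 10-month replicate 1, at 8.44 CPM from 41 counts, with the nearest at 2.91.

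The 6 over 3 month change differed between astrocytes and O4 cells, by the interaction test, for 7 members. As log2 values in astrocytes minus O4 cells, these were Ifih1 (-1.16), Ifitm3 (-1.39), Slfn5 (-3.92), Xaf1 (-0.59), Trim30a (-2.10), Parp14 (-1.97) and Gbp7 (-1.11). Endothelial and mural markers differed in the same direction, and their part was not tested.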

How the results depend on the processing

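In O4 cells at 6 over 3 months H2-K1, Trim30a, Slfn5, Ifitm3, Parp14, Tap2, Ifih1, Herc6 and Oasl2 kept their calls in all 12 alternatives. The count of risen members was 22 with no filter on low counts, 16 with DESeq2 and 10 to 24 with each library left out. For astrocytes it was 2 to 6 with each library left out, both at 6 over 3 and at 10 over 3 months. The difference in age change gave 11 lower members with DESeq2 and 4 to 15 with each library left out. In microglia the count of fallen members was 2 with no filter and 0 to 1 with each library left out. The cause of these moves was not tested.

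With a replicate block, 1 member was higher under Omomyc, and the block changed no other member's call there. In the other tables the replicate numbers did not pair the libraries. There the block took away 1 call and added 2 in astrocytes at 6 over 3 months, took away 2 at 10 over 3 months, 3 in O4 cells and 1 for the difference in age change, and turned H2-K1 at 10 over 6 months to -0.10.

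With 1 library left out, no called member turned its direction. Among uncalled members, those that turned and moved by more than their standard error had these lowest and highest log2 values: in astrocytes at 6 over 3 months Bst2 -0.18 to 0.41, Cd74 -0.24 to 0.28, and at 10 over 3 months Gbp7 -0.32 to 0.14, Oasl2 -0.20 to 0.95, Parp14 -0.59 to 0.23, and at 10 over 6 months Gbp7 -0.19 to 0.27, Ifit3 -0.65 to 0.66, Oasl2 -0.58 to 0.57, Parp14 -0.56 to 0.26, Tap1 -0.17 to 0.57, and in microglia Irf7 -0.81 to 1.18, Irf9 -0.15 to 0.11, Rsad2 -0.28 to 0.37, Rtp4 -0.53 to 0.12, Slfn2 -0.34 to 0.25, and under Omomyc Irf7 -0.76 to 0.84, Mx1 -0.68 to 1.17, Oas1a -0.54 to 0.64, Oasl2 -0.33 to 0.51, Parp14 -0.20 to 0.42, Rsad2 -0.31 to 0.61, Slfn5 -1.04 to 1.43, Trim30a -0.06 to 0.48. Smaller turns, within the standard error, numbered 12, 3 and 17 in astrocytes at 6 over 3, 10 over 3 and 10 over 6 months, 28 in microglia, 2 in O4 cells, 43 under Omomyc, 8 between astrocytes and O4 cells and 13 for the difference in age change, over all members and libraries left out.

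With at most 5 libraries a group, and 2 astrocyte libraries at 10 months, differences smaller than the spread of single libraries were not detectable at this depth.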
